A study of Mus musculus with 8 samples.

Results

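mmu-miR-122-5p, mmu-miR-1a-3p and mmu-miR-133a-3p are 3 mouse microRNAs (miRNAs) that a hepatocyte or a muscle fibre makes in bulk, and they were followed here in small RNA libraries of T cells. They were taken by name from a count table of 1978 mature miRNAs, of which 375 had enough counts to test, all 3 among them. There were 4 libraries from neonatal C57BL/6 mice, 5 to 7 days of age, and 4 from adult C57BL/6 mice, 12 weeks of age. All libraries were made from cytotoxic (CD8+) T lymphocytes enriched from spleen with magnetic beads, and no treatment or engineered allele is given for either group. The labels do not say whether libraries of a group came from separate animals, so a p-value here is set against the spread of these libraries, which may be technical.

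A miRNA guides a silencing protein to messenger RNAs that pair with its seed, bases 2 to 8 from its 5′ end, and so lowers their output. miR-122-5p is the main miRNA of hepatocytes, where it is known for holding down genes of other lineages and for a part in cholesterol metabolism. miR-1a-3p and miR-133a-3p are made together from joint transcripts in skeletal and heart muscle and are known for promoting and tuning muscle differentiation. The 3 are known from those tissues more than from lymphocytes, and the comparison asks how much of each is present in T cell libraries and whether it differs with age.

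Sequences are shown for 4 relatives from the same tissues that carried most of the other liver and muscle counts, with the seed in capitals (RefSeq, GRCm38.p6). miR-192-5p and miR-215-5p share a seed and differ at 3 of their 21 bases, and miR-194-5p is made beside each of them. miR-499-5p is the miRNA of a myosin gene.
miR-192-5p: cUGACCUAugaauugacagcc
miR-215-5p: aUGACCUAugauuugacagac
miR-194-5p: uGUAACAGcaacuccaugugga
miR-499-5p: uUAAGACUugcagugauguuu

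miR-122-5p was the member with a solid signal. Its counts were 2982, 2932, 3090 and 2084 in neonatal libraries 1 to 4, against 402, 350, 551 and 488 in adult libraries 1 to 4. Scaled to depth as CPM by the TMM method, which takes a factor for each library from the trimmed mean of its ratios to the others, these were 1591, 1119, 1346 and 745 CPM in neonatal libraries, against 390, 245, 262 and 245 CPM in adult libraries. All 4 neonatal libraries lay above all 4 adult ones, as held for 26.4% of the miRNAs tested, and the lowest neonatal level was 1.91 times the highest adult level. The mean was 1200 ± 360 CPM over neonatal libraries, against 286 ± 70.4 CPM over adult ones (SD, n = 4 each).

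The fitted rise of miR-122-5p was 2.08 ± 0.24 on the log2 scale (SE; 4.21-fold, 95% interval 2.94 to 6.04), with an adjusted p of 1.31e-05 by edgeR's quasi-likelihood test with Benjamini-Hochberg adjustment over all 375. It was the 1 member of 3 called at an adjusted p under 0.05. Of all miRNAs tested 63.2% were called in either direction and 29.1% as higher in neonatal libraries, so a call is common in this comparison and 1 of 3 is near the background. In fold change miR-122-5p ranked at 27 of 375, counted from the highest. In bulk libraries a larger number of cells of a kind and more RNA per cell cannot be told apart.

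The level put miR-122-5p well inside the range of miRNAs that these libraries detect with ease. It ranked at 54, 68, 58 and 85 among all mature miRNAs in neonatal libraries, against 110, 120, 117 and 120 in adult libraries. Its share of all counts was 0.151% ± 0.0511 in neonatal and 0.0229% ± 0.00569 in adult libraries (SD, n = 4 each). A share uses no scaling factor, and its difference had p = 0.0286 by a two-sided exact permutation test, the smallest that 4 against 4 allows. Adjusted over the 6 shares and ratios tested, that p was 0.114 and did not pass. A single quantity at the smallest p cannot pass such an adjustment by itself, so no conclusion is drawn from the adjusted value.

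**Figure D1:**
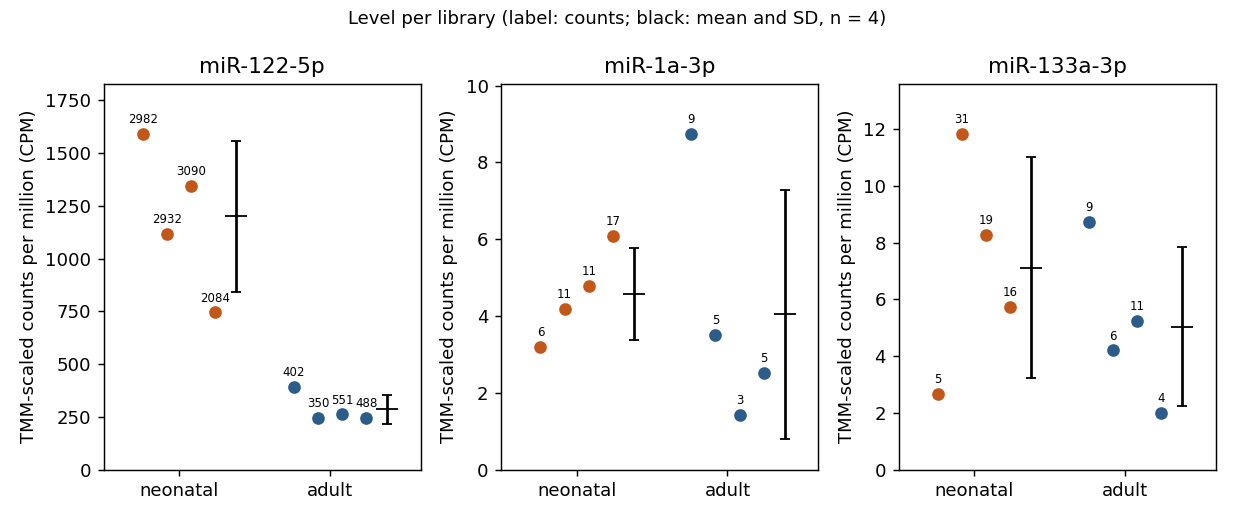
Level of each member in neonatal (left, orange) and adult (right, blue) libraries, in TMM-scaled CPM on linear axes that start at 0. Each point is a library labelled with its count, and black bars give the mean and SD of 4. For miR-122-5p the neonatal points (745 to 1591 CPM) lie above the adult ones (245 to 390 CPM), while for miR-1a-3p and miR-133a-3p the groups overlap.

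miR-1a-3p was near the limit of detection in both groups. It had 6, 11, 11 and 17 counts in neonatal libraries 1 to 4, against 9, 5, 3 and 5 counts in adult libraries 1 to 4. That is 3.20, 4.20, 4.79 and 6.08 CPM in neonatal libraries, against 8.74, 3.50, 1.43 and 2.51 CPM in adult libraries. The highest level of all was that of adult library 1, above every neonatal library, so the groups overlapped.

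The fitted change of miR-1a-3p was 0.39 ± 0.49 on the log2 scale and did not pass (edgeR's adjusted p = 0.511). Its 95% interval ran from -0.68 to 1.46, so the data do not exclude a neonatal level between 0.625 and 2.76 times the adult one. Without adult library 1 the change was 0.91, and without adult library 3 it was 0.07 (edgeR's adjusted p of 0.11 and 0.913). As a share of counts the 95% interval was 0.000410% to 0.00113% in neonatal library 4, against 0.0000237% to 0.000336% in adult library 3 (exact Clopper-Pearson, counting error only). These were the libraries with the most and the fewest counts of it. In adult library 1 the interval was 0.000321% to 0.00133%, which overlaps that of neonatal library 4. A difference in share between the groups was not shown (two-sided exact permutation p = 0.143, and 0.206 adjusted over the 6 shares and ratios).

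miR-133a-3p was at a like level. Its counts, summed and rounded, were 5, 31, 19 and 16 in neonatal libraries 1 to 4, against 9, 6, 11 and 4 in adult libraries 1 to 4. The levels were 2.67, 11.8, 8.28 and 5.72 CPM in neonatal libraries, against 8.74, 4.20, 5.23 and 2.01 CPM in adult libraries. Neonatal library 2 was above all adult libraries and neonatal library 1 below all but one, so the groups overlapped here too.

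The fitted change of miR-133a-3p was 0.62 ± 0.49 on the log2 scale (95% interval -0.45 to 1.69) and did not pass, with an adjusted p of 0.285 by edgeR. It depends on the scaling. Scaling by library totals moved the median miRNA up by 0.63 on the log2 scale, and miR-133a-3p then stood at 1.24 ± 0.49 and passed (edgeR's adjusted p = 0.0417). miR-1a-3p stood at 1.01 with totals and did not pass (edgeR's adjusted p = 0.0841). The direction of miR-133a-3p also differed among libraries, in subsets that were chosen after seeing the data. With libraries 2 and 4 of each group alone its change was 1.52 (edgeR's adjusted p = 0.0205), and with libraries 1 and 3 alone it was -0.07 (0.914). In the same subsets miR-122-5p stood at 1.90 and 2.32 and was called in both. Libraries 1 and 3 were the pair most alike in each group (chi-square per degree of freedom of 19.1 in neonatal and 47.8 in adult libraries), and no label names a batch.

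Ratios between members within a library do not depend on scaling. Per count of miR-1a-3p, miR-122-5p stood on the log2 scale at 8.84, 7.99, 8.07 and 6.90 in neonatal libraries 1 to 4, against 5.41, 5.99, 7.30 and 6.47 in adult libraries 1 to 4. The mean log2 ratio was 7.95 ± 0.80 in neonatal and 6.29 ± 0.80 in adult libraries (SD, n = 4 each), a difference of 1.66. The groups overlapped by 1 library on each side, and the two-sided exact permutation test gave p = 0.0571 (0.114 adjusted over the 6 shares and ratios). Within same-numbered pairs the ratio was higher in the neonatal library in 4 of 4, and exact flipping of signs by pair gave p = 0.125, the smallest that 4 pairs allow. A difference between the changes of miR-122-5p and miR-1a-3p was therefore not shown by this test.

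Against miR-133a-3p the log2 ratio of miR-122-5p averaged 7.48 ± 1.12 in neonatal and 5.88 ± 0.61 in adult libraries (exact permutation p = 0.0571, and 0.114 adjusted). It too was higher in the neonatal library of all 4 pairs (exact sign flips, p = 0.125). A shift with age in the ratio of the muscle miRNAs to each other was not detectable. Their log2 ratio, miR-1a-3p over miR-133a-3p, was -0.47 ± 0.79 in neonatal and -0.42 ± 0.89 in adult libraries (exact permutation p = 0.943, two-sided, n = 4 each).

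**Figure D2:**
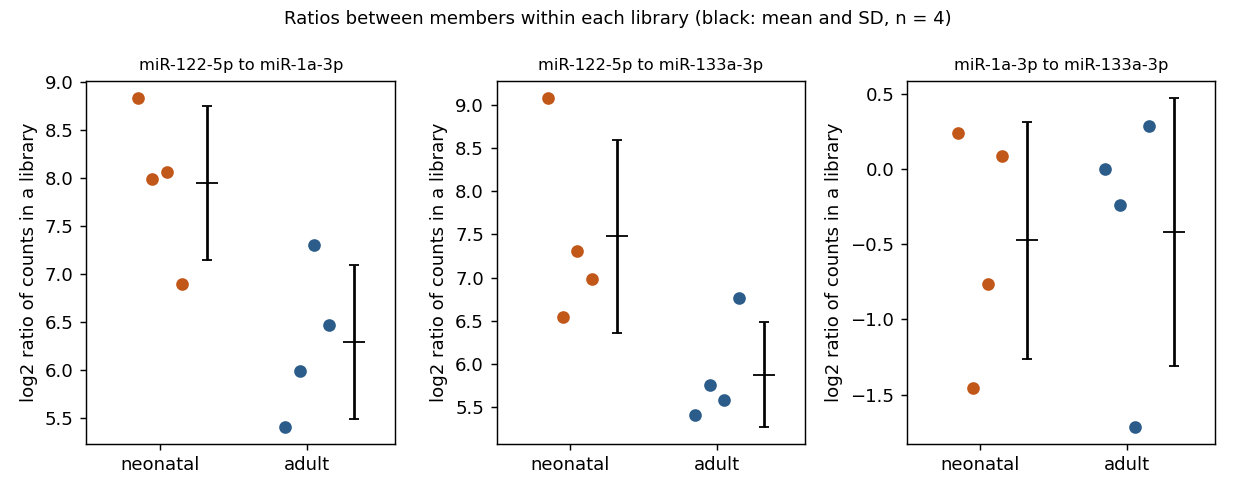
log2 ratio of the counts of 2 members within a library, neonatal left and adult right, with black bars for the mean and SD of 4 libraries. Both ratios with miR-122-5p on top are higher on average in neonatal libraries, with 3 of 4 neonatal libraries above every adult one, and the ratio of the muscle miRNAs overlaps throughout.

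The genes of the members lie at 5 hairpins in the mouse genome (mm10). miR-122 comes from 1 hairpin on chromosome 18 (65248861 to 65248926, plus strand), within an exon of a long noncoding RNA on the same strand. miR-1a-3p and miR-133a-3p each come from a pair of hairpins that stand side by side. On chromosome 2 these are Mir1a-1 (180389048 to 180389124) and Mir133a-2 (180398379 to 180398482), whose starts are 9331 bases apart within the noncoding host Mir1a-1hg of RefSeq. On chromosome 18 they are Mir1a-2 (10785481 to 10785552) and Mir133a-1 (10782909 to 10782976), whose starts are 2572 bases apart in an intron of Mib1 on the opposite strand.

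The table cannot say which of the 2 muscle loci was read. Both precursor entries of miR-1a-3p held equal values in all 8 libraries, and so did both entries of miR-133a-3p, as when a read that maps to each copy is split evenly. miR-133a-3p also shared reads with its close relative miR-133b-3p, which held at most 1 count in any library. Within the pairs the guide alone was seen: miR-1a-1-5p, miR-1a-2-5p and miR-133a-5p had 0 counts in every library. The guides themselves had few counts, 45 in neonatal and 22 in adult libraries for miR-1a-3p, and 71 and 29 for miR-133a-3p. A scarce opposite arm could therefore have been missed.

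The opposite arm of miR-122 was also at 0. miR-122-3p had no count in any library, beside 12879 counts of miR-122-5p, which allows the arm at most 0.0233% of the hairpin's counts (a limit of 3 counts). Of 103 hairpins on a single precursor with both arms annotated and at least 1000 counts of the major arm, 8 had a minor arm at 0, miR-122 included. The median minor arm held 1.33% of its hairpin's counts, and 17 hairpins other than miR-122 had an observed minor-arm share below 0.0233%. Some of those were at 0 with fewer counts of the major arm, such as miR-99a (1174), where 3 counts would be a larger share. At the abundance of miR-122-5p or above, 2 hairpins had a minor arm at 0, the other being miR-374b, while 56 hairpins were more abundant than miR-122. The hairpin miR-122b, annotated over the same bases, had 2 counts of its 5p arm in neonatal library 4 and 0 elsewhere.

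Other liver miRNAs differed in direction. Of 13 miRNAs on a liver list 4 could be tested, and apart from miR-122-5p 1 was higher, 1 was lower and 1 did not pass, with a median log2 fold change of -0.23 over these 3, against -0.05 for all 375. Calls as higher made up 29.1% of all tested. miR-192-5p, abundant in liver, gut and kidney, had 1015, 1175, 979 and 1713 CPM in neonatal libraries 1 to 4, against 998, 1790, 1125 and 1817 CPM in adult libraries 1 to 4. Its groups overlapped, and its change of -0.23 ± 0.24 did not pass (edgeR's adjusted p = 0.408), with a value of 0.39 with library totals. miR-194-5p fell to 428 ± 118 CPM in neonatal libraries, against 662 ± 69.2 CPM in adult libraries (-0.63 ± 0.19, edgeR's adjusted p = 0.0115), among 34.1% of all tested that were called as lower, and lost its call with library totals (-0.01) and with precursor entries kept apart (-0.35, edgeR's adjusted p = 0.0752).

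Besides miR-122-5p the member of the liver list called as higher was miR-194-2-3p, the opposite arm of 1 of the hairpins that give miR-194-5p. It had 54, 53, 58 and 63 counts in neonatal libraries, against 20, 14, 20 and 24 counts in adult libraries. The groups did not overlap in CPM (24.2 ± 3.70 in neonatal libraries, against 12.7 ± 4.63 in adult ones, SD, n = 4 each), as held in this direction for 26.4% of all tested. The rise was 0.97 ± 0.27 (edgeR's adjusted p = 0.00617), among 29.1% of all tested that were called as higher. That the arms of this hairpin moved apart was not tested.

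The remaining liver and fetal liver miRNAs of the list were at or near 0. miR-802-5p and miR-802-3p, known from liver and pancreas, had 0 counts in every library, as had miR-194-1-3p and miR-215-3p. The miRNAs of the Igf2 gene, active in fetal liver, reached 4 counts at most: miR-483-5p had 0, 4, 2 and 2 counts in neonatal libraries and 0 in all adult ones, and miR-483-3p had 4, 0, 4 and 4 counts in neonatal libraries, against 0, 0, 0 and 2 in adult libraries. miR-215-5p had 2 to 14 counts per library and did not reach the test. The summed level of the whole list, miR-122-5p included, was 2748 to 3061 CPM in neonatal libraries, against 1975 to 2793 CPM in adult ones. miR-122-5p alone gave 745 to 1591 CPM and 245 to 390 CPM of it, so the sum does not describe the remaining miRNAs.

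The muscle list was nearly empty apart from the members and miR-499-5p. Of its 18 miRNAs 10 had 0 counts in every library, 3 could be tested and none was called with TMM scaling, with a median log2 fold change of 0.62 over the 3. miR-206-3p, the skeletal muscle miRNA, had 4 counts in neonatal library 2 and 0 in the other 7 libraries. The heart miRNA miR-208a-3p was at 0 in all of them, and miR-208b-3p had 6, 1, 0 and 0 counts in neonatal libraries, against 2, 0, 0 and 1 in adult libraries. Summed over the list, the level was 11.7 to 30.1 CPM in neonatal libraries, against 7.53 to 23.3 CPM in adult ones.

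miR-499-5p, which lies in an intron of the myosin gene Myh7b (chromosome 2, 155622880 to 155622958), was about as abundant as the muscle members. It had 5, 29, 16 and 21 counts in neonatal libraries, against 2, 9, 14 and 3 in adult libraries. Its levels overlapped (2.67 to 11.1 CPM in neonatal libraries, 1.51 to 6.66 CPM in adult ones) and its change of 0.76 ± 0.51 did not pass (edgeR's adjusted p = 0.206). As for miR-133a-3p, scaling by library totals gave a call (1.38, edgeR's adjusted p = 0.0293), and so did libraries 2 and 4 alone (1.33, edgeR's adjusted p = 0.0366). The neonatal library lowest in miR-499-5p, library 1, was also lowest in miR-133a-3p and in miR-1a-3p.

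**Figure D3:**
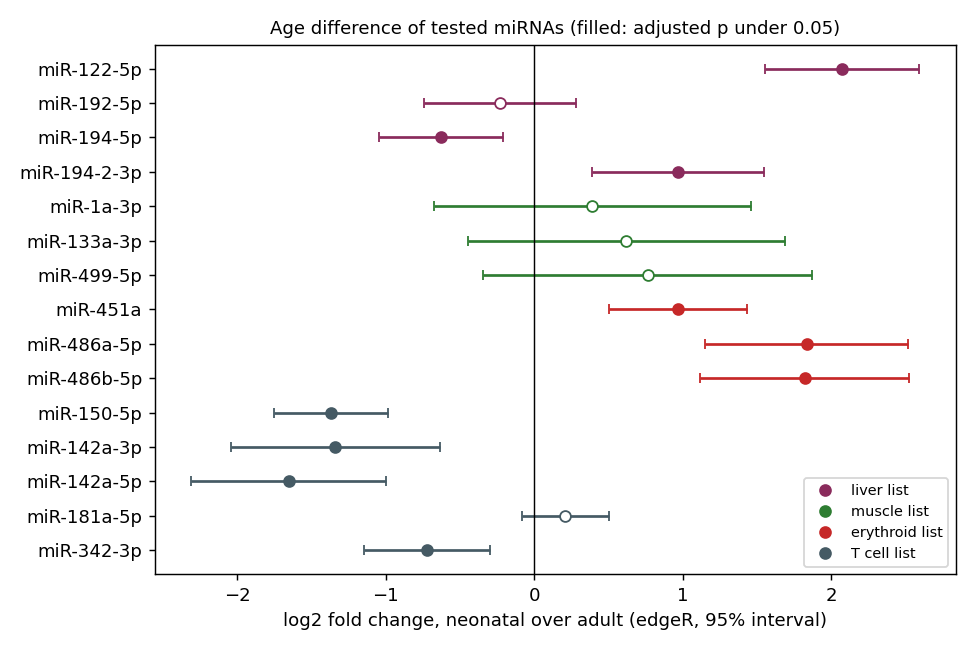
log2 fold change, neonatal over adult, of the tested miRNAs on the liver, muscle, erythroid and T cell lists, with 95% intervals from edgeR and filled points for an adjusted p under 0.05. miR-122-5p (2.08) stands apart from the other liver miRNAs (-0.63 to 0.97) and next to the 2 miR-486 miRNAs (1.84 and 1.82), and the intervals of the 3 muscle miRNAs cross 0.

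miRNAs of other tissues were scarce as well. Of 8 brain miRNAs, miR-9-5p alone could be tested, and it rose to 6.38 ± 0.53 CPM in neonatal libraries, against 3.14 ± 0.68 CPM in adult libraries (1.04 ± 0.34, edgeR's adjusted p = 0.0161). That call was lost without adult library 3 (edgeR's adjusted p = 0.0658), without a filter (0.0909) and in libraries 1 and 3 or 2 and 4 alone (0.0506 and 0.0997). miR-9-5p had 13, 17, 13 and 18 counts in neonatal libraries, against 4, 4, 5 and 7 in adult ones. It passed the filter through the neonatal libraries alone, so its rise says nothing of the list. miR-219a-5p did not reach the test, with 3, 3, 5 and 8 counts in neonatal libraries, against 5, 11, 10 and 6 in adult ones. Its change without a filter was -1.24 (edgeR's adjusted p = 0.113). The 5 pancreatic miRNAs summed to at most 2.13 CPM in a neonatal library, against 2.38 CPM in an adult one, and none could be tested. The T cell miRNAs, by contrast, were abundant, and the 5 listed summed to 72940 to 75700 CPM in neonatal libraries, against 143500 to 210100 CPM in adult ones. With TMM scaling 4 of them fell in neonatal libraries, beside 34.1% of all tested that were called as lower, and miR-181a-5p did not pass. Among these 4, miR-142a-3p and miR-142a-5p are the arms of a single hairpin. With library totals miR-142a-3p and miR-342-3p lost their calls and miR-181a-5p was higher (0.84). miR-142a-3p also lost its call without a filter (edgeR's adjusted p = 0.0553). miR-181a-5p also passed as higher with RLE (0.0493) and upper quartile scaling (0.00831), with precursor entries kept apart (0.0107), in libraries 1 and 3 alone (0.041) and by DESeq2 (adjusted p = 0.0286).

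Of markers of other cells of the spleen, the erythroid, endothelial and stromal miRNAs that could be tested were also higher in neonatal libraries. Beside a background of 29.1% called as higher, all 3 erythroid miRNAs that could be tested, of 5 listed, were higher in neonatal libraries, although 2 of them (miR-486a-5p and its copy) share a sequence. The list summed to 308 to 775 CPM in neonatal libraries, against 120 to 252 CPM in adult ones, with no member at 0 throughout. Both endothelial miRNAs rose, but they are the arms of a single hairpin, miR-126a. Their sum was 125 to 160 CPM in neonatal libraries, against 46.6 to 77.0 CPM in adult ones. Both tested ones of 6 stromal miRNAs rose too. The others did not reach the test, and none passed without a filter. There miR-145a-3p and miR-214-3p stood at 0.52 and 0.21, and miR-145a-5p and miR-199a-5p at -0.46 and -1.15. The stromal list summed to 65.1 to 84.5 CPM in neonatal libraries, against 20.4 to 54.6 CPM in adult ones. The stromal calls depend on the libraries. miR-143-3p (1.07) lost its call without adult library 1 or 4 (edgeR's adjusted p of 0.0649 and 0.0628), and with libraries 2 and 4 alone miR-143-3p and miR-199a-3p stood at 0.50 and 0.52 and neither passed (0.159 and 0.186). The 2 myeloid miRNAs, which could not be tested, summed to 3.49 to 8.54 CPM in neonatal libraries, against 2.85 to 9.10 CPM in adult ones. The part of such cells in the level of miR-122-5p was not tested.

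Levels of miR-122-5p are set here beside those of miR-486a-5p, chosen after its values were seen, which is abundant in red cells and in muscle and shares its sequence with miR-486b-5p. It had 660, 575, 752 and 364 counts in neonatal libraries 1 to 4, against 110, 70, 148 and 128 counts in adult libraries 1 to 4, and rose by 1.84 ± 0.31 on the log2 scale (edgeR's adjusted p = 0.000260). Over the 8 libraries miR-486a-5p held 2807 counts and its copy miR-486b-5p held 2911, and the copies were not summed here. Ratios to the shared sequence would therefore be lower than those to miR-486a-5p alone. For each count of miR-486a-5p alone there were 4.52, 5.10, 4.11 and 5.72 counts of miR-122-5p in neonatal libraries, against 3.66, 5.00, 3.72 and 3.81 in adult libraries. These ratios overlapped between the ages, and were higher in the neonatal library of all 4 same-numbered pairs. Against the red cell miRNA miR-451a the ratios did not overlap: there were 18.6 to 32.4 counts of miR-122-5p per count of miR-451a in neonatal and 9.84 to 13.9 in adult libraries. miR-451a itself rose by 0.97 ± 0.22 (edgeR's adjusted p = 0.00161).

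Likeness within an age was measured over the 8 libraries. After subtraction of each group's mean, the log2 levels of miR-122-5p over the 8 libraries were most like those of miR-93-3p (r = 0.970), miR-1198-5p (0.967), miR-320-3p (0.965), miR-486a-5p (0.965) and its copy miR-486b-5p (0.960), out of 303 tested miRNAs of at least 10 CPM. Of these 5, the miR-486 pair rose in neonatal libraries, miR-320-3p fell and the other 2 did not pass. Such correlations are a description, since all levels in a library share its depth and scaling. miR-122-5p was hardly like the muscle members (r = 0.190 with miR-1a-3p and 0.117 with miR-133a-3p), which stood at r = 0.475 with each other.

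For the muscle members the nearest were less close, as few counts allow. miR-1a-3p was most like miR-466i-3p (r = 0.847), miR-466f-3p (0.828), miR-151-3p (0.825), miR-194-2-3p (0.671) and miR-450b-5p (0.626). miR-133a-3p was most like miR-30a-3p (r = 0.879), miR-1955-5p (0.848), miR-132-3p (0.801), miR-425-5p (0.785) and miR-7015-3p (0.770), each out of 304 miRNAs and over the 8 libraries.

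In neonatal libraries the counts of miR-122-5p did not grow with depth. Neonatal library 4 was the deepest of its group, with 2416060 counts in all, and had the fewest of miR-122-5p, while neonatal library 1, the shallowest at 1454421, had 2982. Among adult libraries the deepest had the most, 551, and the next to shallowest the fewest, 350. The relative spread (SD over mean) of its counts was 16.7% in neonatal and 20.0% in adult libraries, smaller than that of its CPM, 30.0% and 24.6%. Of the 375 tested miRNAs, 30 had a smaller spread of counts than of CPM in both groups. Among the 159 with at least 100 CPM on average 5 did, namely miR-5099, miR-3535, miR-122-5p, miR-486b-5p and miR-486a-5p, which were singled out after their values were seen.

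**Figure D4:**
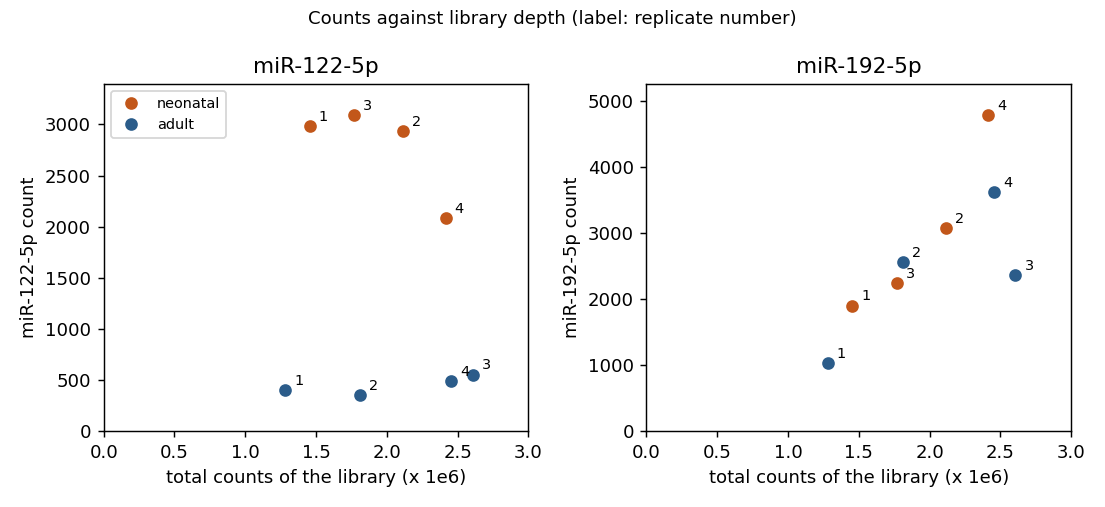
Counts of miR-122-5p (left) and of miR-192-5p (right) against the total counts of each library, with neonatal libraries in orange, adult libraries in blue and replicate numbers beside the points. The neonatal points of miR-122-5p run from 3090 down to 2084 while depth varies, whereas those of miR-192-5p go from 1903 in the shallowest neonatal library to 4790 in the deepest.

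The relative spread of the level between libraries of a group sets how firmly each member can be described. It was 30.0% in neonatal and 24.6% in adult libraries for miR-122-5p, 26.3% and 80.2% for miR-1a-3p, and 54.5% and 55.6% for miR-133a-3p. edgeR's estimate of variation beyond counting error was 23.9% for miR-122-5p, 27.8% for miR-1a-3p and 36.5% for miR-133a-3p, against 21.4% for all miRNAs in common. miR-133a-3p ranked at 359 of 375 in this estimate, counted from the least variable. Over each group, 45 counts of miR-1a-3p in neonatal and 22 in adult libraries, and 71 and 29 of miR-133a-3p, carry these values, against 11088 and 1791 of miR-122-5p.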

How the data were processed

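Per the labels' protocols, spleen suspensions were collected in medium with fetal bovine serum, enriched with magnetic beads and extracted with Trizol, and libraries were made with the NEBNext small RNA kit. The authors deposited estimated counts for each mature miRNA on each precursor, without normalization, from reads placed on mm10 (per the submitters' processing notes). Aligner, counting tool and annotation version were not given in the sources used here. Among non-zero deposited values 71.4% were whole within 0.001. The rest were fractions, as when reads are shared, so near-identical miRNAs are not fully separated. Adapter ligation depends on sequence, which limits comparisons between different miRNAs.

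Counts were summed over precursors and rounded. Totals were 1454421 to 2416060 in neonatal libraries and 1281032 to 2606630 in adult ones, so that after TMM scaling (factors of 1.16 to 1.30 and of 0.788 to 0.812) 1 count was 0.358 to 0.534 CPM and 0.475 to 0.971 CPM. No 2 libraries of a group agreed within sampling noise. miRNAs passing filterByExpr (minimum count 10, minimum total 15) were tested by edgeR 4.0.16 (R 4.3.3) with its quasi-likelihood F test, age group as the only term, robust dispersions and Benjamini-Hochberg adjustment at 0.05, after a check on simulated data. SEs are the fold change over the root of F. Shares and log2 ratios (pseudocount 0.5) had exact permutation tests (scipy 1.17.1), and likeness was Pearson's r of log2(CPM + 0.5). Alternatives used limma 3.58.1, DESeq2 1.42.0, other scalings and filters, and libraries left out.

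Replicate numbers 1 to 4 occur in both groups, with no meaning given. Deviations from group means correlated at r = 0.241 to 0.387 between same-numbered libraries, over 0.1 for all 4 pairs. Unlike-numbered libraries reached r = 0.463 (neonatal 4 with adult 2) and 0.381 (neonatal 3 with adult 1). Libraries 1 and 3 correlated positively across the groups, as did 2 and 4, and odd with even numbers negatively. This check therefore cannot show that the numbers pair the libraries. Results by same-numbered pair are given as an alternative only.

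Members and lists were chosen with earlier results of these data known. Named miRNAs were the members, their other arms and relatives, listed miRNAs with at least 10 counts in a library, and the 5 most like each member. Any other was chosen after its values were seen. Hairpin positions came from RefSeq and were the same in GENCODE.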

Additional observations from a re-analysis of the deposited data

Results flagged for a closer look

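Adult library 1 stood apart from the other adult libraries in miR-122-5p, at 390 CPM beside 245, 262 and 245 CPM, and at 0.0314% of counts beside 0.0193%, 0.0211% and 0.0199%. The gap to the nearest library was most of the group's range. Both values come from the same counts. They were 2 of 28 groups of 4 libraries examined for such a gap, and chance gives about 1 in 20. Without this library the rise of miR-122-5p was 2.26 ± 0.27 on the log2 scale (edgeR's adjusted p = 3.83e-05).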

How the results depend on the processing

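The rise of miR-122-5p was called under all 19 alternatives run, at 1.90 to 2.73 on the log2 scale, and stood at 2.05 with the replicate number as a block (edgeR's adjusted p = 9.54e-12). The block changed no call of a member. miR-1a-3p was not called under any alternative that kept it (0.07 to 1.01). It failed the filter with at least 10 CPM in 4 libraries, with precursor entries kept apart and without neonatal replicate 4, and the first 2 of these also removed miR-133a-3p. miR-133a-3p passed with library totals (1.24) and with libraries 2 and 4 alone (1.52), and turned to -0.068 with libraries 1 and 3 alone, subsets chosen after seeing the data. The cause was not tested. miR-192-5p turned to 0.39 with library totals and to 0.043 with libraries 1 and 3 alone. The count of called miRNAs, 237, ran from 213 to 287 and was 265 with the block, and its split into 109 higher and 128 lower became 186 and 68 with library totals. Flipping signs by pair in an exact test gave p = 0.125 for the share of miR-122-5p, the smallest that 4 pairs allow. Leaving out 1 library moved the difference in log2 ratio of miR-122-5p to miR-1a-3p between 1.36 and 2.01. The muscle members rest on 3 to 31 counts per library.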
